A study of Mus musculus with 8 samples.

Results

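The natriuretic peptide system is followed here through 8 genes in the mouse heart, chosen by gene symbol from 19938 genes tested: the ligand genes Nppa, Nppb and Nppc, the convertase genes Corin and Furin, and the receptor genes Npr1, Npr2 and Npr3. All 8 had a probe on the Affymetrix Mouse Gene ST array, 1 probe each. Total RNA from the heart was measured in 4 groups of 2 arrays. KO MI hearts came from mice lacking MAFbx (the muscle ubiquitin ligase atrogin-1, encoded by Fbxo32) taken 1 day after myocardial infarction (MI), made by tying off the left coronary artery for good. KO sham hearts came from the same genotype after a sham operation, and WT MI and WT sham hearts were the wild-type counterparts. The labels give neither the strain, sex or age of the mice, the deleted part of the gene, the time after the sham operation nor the part of the heart sampled, and nothing in them shows that a group's arrays are different animals. The p-values therefore measure only how far these samples spread, which may be technical.

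Natriuretic peptides are hormones that lower blood pressure and blood volume. Heart muscle makes atrial natriuretic peptide (ANP, from Nppa) and B-type natriuretic peptide (BNP, from Nppb) as precursors, in larger amounts when it is stretched. The protease corin cuts pro-ANP and the protease furin can cut pro-BNP. ANP and BNP act through the receptor guanylyl cyclase encoded by Npr1, and C-type natriuretic peptide (CNP, from Nppc) acts through the one encoded by Npr2, so that the target cell makes cyclic GMP (cGMP). The receptor encoded by Npr3 has no cyclase and clears all of these peptides from the circulation.

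Fbxo32 was low in all KO arrays: it read 5.14 and 5.46 in KO MI against 8.35 and 8.21 in WT MI, and 4.68 and 5.17 in KO sham against 8.755 and 8.79 in WT sham (log2 levels). Array medians over all probes lay between 5.004 and 5.253. On the second principal component KO sham replicate 1 lay at -21.2 and KO sham replicate 2 at 15.3, and WT MI replicate 2 lay at -20.2 and WT MI replicate 1 at 0.6. Counts of changed genes are therefore also given without these 2 arrays. The heart muscle genes Actc1, Tnnt2, Tnni3, Myh6, Ryr2, Atp2a2, Ttn and Actn2 had a mean log2 level between 12.985 and 13.27 in every array. All levels and differences below are on the log2 scale of the deposited values, and levels are compared within a gene only.

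After infarction the ligand genes read higher and the receptor genes lower than after sham surgery in both genotypes. Nppc and Npr1 passed the test in KO hearts and not in WT hearts, but the difference between the genotypes did not pass for either (0.14, adjusted p = 0.922 for Nppc and -0.28, adjusted p = 0.785 for Npr1). In KO hearts 3 of the 8 genes rose (Nppa, Nppb and Nppc) and 3 fell (Npr1, Npr2 and Npr3), where 10.5% of all genes tested rose and 10.3% fell. In WT hearts 2 rose (Nppa and Nppb) and 3 fell (Corin, Npr2 and Npr3), where 12.3% of all genes rose and 15.8% fell. A gene counted as changed at a limma adjusted p under 0.05, with Benjamini-Hochberg adjustment over all genes. The arrays of the groups did not overlap for 7 of the 8 genes in KO hearts and for 7 in WT hearts, but that held for 55.6% and 66.6% of all genes in the same order. Without KO sham replicate 1 and WT MI replicate 2, 5 genes changed in KO hearts and 5 in WT hearts, and without KO MI replicate 1 the count in KO hearts was 3.

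**Figure D1:**
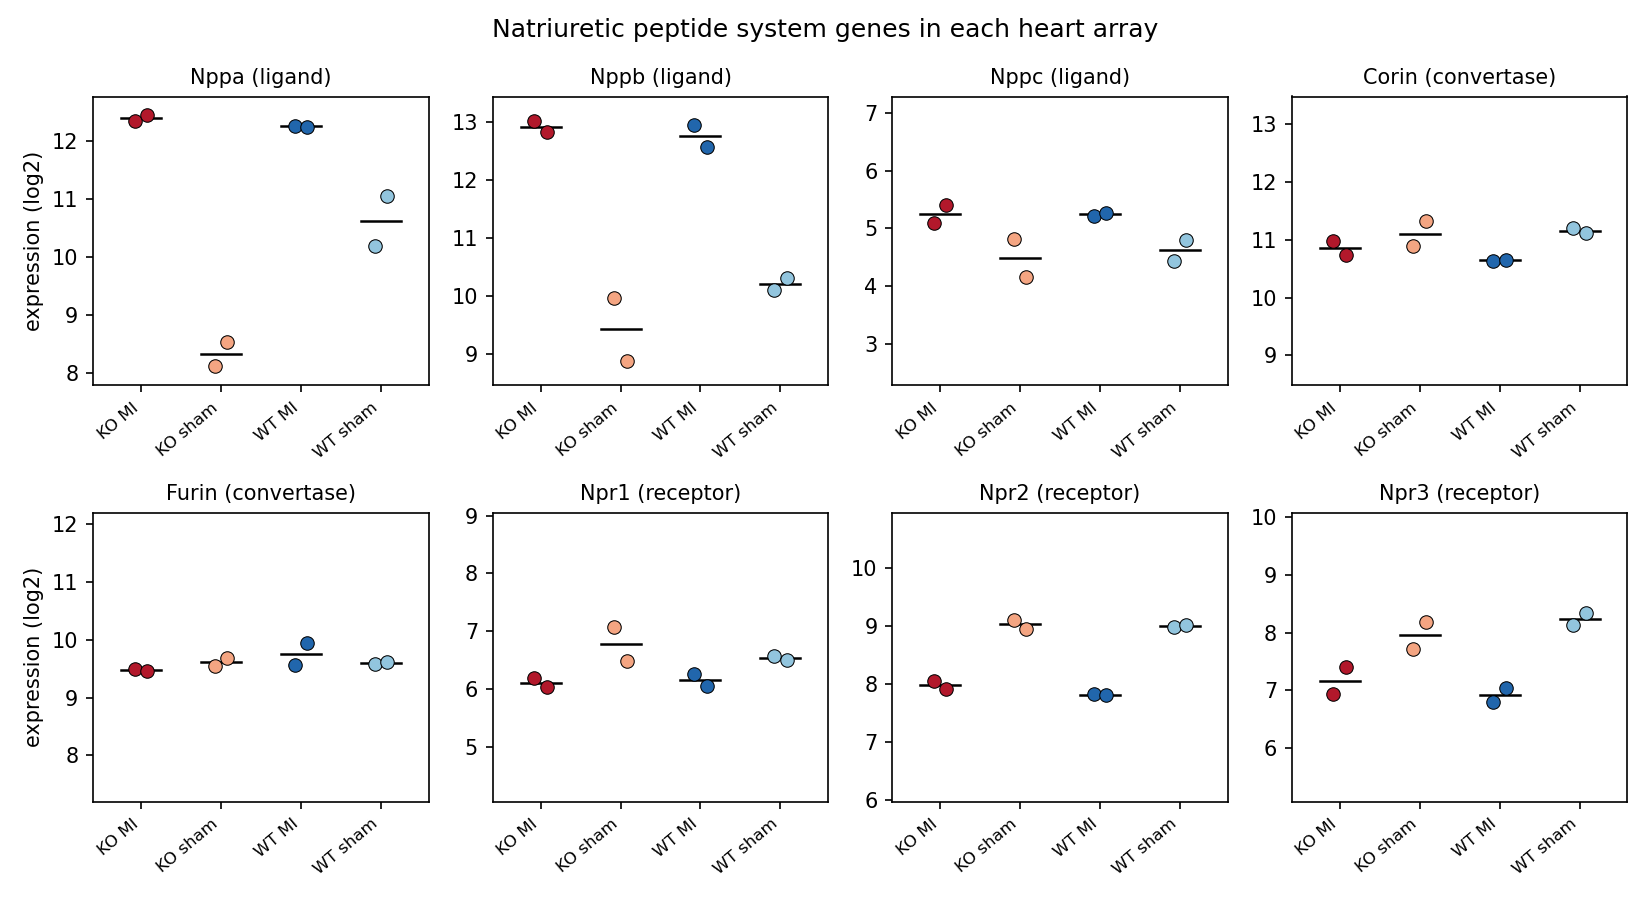
Expression (log2) of each natriuretic peptide gene in the 4 groups. Each point is 1 array, each horizontal bar is the mean of the 2 arrays of its group, and all panels span the same number of log2 units. Nppa and Nppb lay between 12.25 and 13.02 in the 4 MI arrays, and Nppa was lowest in KO sham (8.11 and 8.52).

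Nppa, the ANP gene, read 12.36 and 12.45 in the KO MI arrays, against 8.11 and 8.52 in the KO sham arrays. In WT hearts it read 12.27 and 12.25 after MI, against 10.19 and 11.06 after sham surgery. The 4 MI arrays lay within 0.197 of each other, while the sham arrays of KO and WT lay far apart. Nppa rose 17.0-fold in KO hearts (difference 4.09, SE 0.25, adjusted p = 8.51e-06) and 3.12-fold in WT hearts (difference 1.64, SE 0.25, adjusted p = 0.000952). Both rises passed in each of the 19 alternatives tried.

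Nppb, the BNP gene, read 13.02 and 12.83 in the KO MI arrays, against 9.97 and 8.87 in the KO sham arrays. It read 12.95 and 12.58 in the WT MI arrays, against 10.10 and 10.31 in the WT sham arrays. The KO sham arrays differed from each other by more than those of any other group (SD 0.775 in KO sham, against 0.136, 0.261 and 0.149 in KO MI, WT MI and WT sham). The rise was 11.4-fold in KO hearts (difference 3.51, SE 0.29, adjusted p = 5.53e-05) and 5.885-fold in WT hearts (difference 2.56, SE 0.29, adjusted p = 0.000207), and both passed in each of the 19 alternatives.

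Nppa and Nppb lie next to each other on mouse chromosome 4 with 0 protein-coding genes between them, and their RefSeq start sites are 14822 bases apart. Their promoters are shown because these genes rose together and by more than the other 6. Each line gives 250 bases before the RefSeq start and 50 after it (RefSeq, GRCm38.p6, plus strand, chr4:148000472-148000771 for Nppa and chr4:147985650-147985949 for Nppb). Capitals mark letters found by a search on both strands for the motifs of heart transcription factors and for the TATA box.
Nppa: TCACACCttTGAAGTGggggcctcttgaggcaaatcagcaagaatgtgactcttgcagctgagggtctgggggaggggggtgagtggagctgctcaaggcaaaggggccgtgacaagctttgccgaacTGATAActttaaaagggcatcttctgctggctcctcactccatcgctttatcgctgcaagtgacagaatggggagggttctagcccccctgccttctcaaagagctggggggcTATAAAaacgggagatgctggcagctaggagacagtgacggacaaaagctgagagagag
Nppb: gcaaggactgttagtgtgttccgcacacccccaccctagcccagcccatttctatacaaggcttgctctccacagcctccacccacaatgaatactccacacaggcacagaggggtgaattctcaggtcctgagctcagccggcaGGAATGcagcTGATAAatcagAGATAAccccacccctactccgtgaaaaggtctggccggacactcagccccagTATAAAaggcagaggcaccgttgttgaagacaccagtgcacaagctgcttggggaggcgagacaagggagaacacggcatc
The motifs searched were GATA in 4 forms (AGATAA as one form, AGATAG as another, TGATAA as the next and TGATAG as the last), the NKX2-5 element (TNAAGTG), the T-box (GGTGTGA), the M-CAT element (spelled CATTCC), AP-1 (TGANTCA), the CArG box and the TATA box (TATAAA), and no matches in the 2 windows overlapped. The Nppa window held 1 GATA match at -122 to -117, 1 NKX2-5 element at -241 to -235, 1 T-box on the minus strand at -250 to -244 and 1 TATA box at -9 to -4, counted from the RefSeq start. The Nppb window held GATA matches at -95 to -90 and at -84 to -79, 1 M-CAT on the minus strand at -105 to -100 and 1 TATA box at -31 to -26. Of 32851 RefSeq promoter windows of this length, 29.8% held a GATA match, 11.5% an NKX2-5 element, 3.98% a T-box, 14.7% an M-CAT, 7.81% an AP-1 match, 1.63% a CArG box and 13.6% a TATA box. GATA and the TATA box occurred together in 5.74% of the windows, and at least 2 GATA matches in 7.77%. Among the other genes of the system the Nppc window held a TATA box and 1 of the 2 Furin windows held a TATA box and NKX2-5 elements, while the windows of Corin, Npr1, Npr2 and Npr3 held none of these letters. A match is a description of the sequence, not evidence of binding.

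Nppc, the CNP gene, whose product endothelial cells release to act nearby, read 5.09 and 5.40 in the KO MI arrays, against 4.82 and 4.16 in the KO sham arrays, and 5.22 and 5.27 in the WT MI arrays, against 4.44 and 4.80 in the WT sham arrays. In KO hearts it rose 1.69-fold (difference 0.76, SE 0.22, adjusted p = 0.0348), and in WT hearts a difference of 0.62 (95% interval 0.14 to 1.11) missed the threshold (adjusted p = 0.059). The KO rise was lost in 9 of 19 alternatives, with adjusted p from 0.0509 to 0.219 (0.174 without KO sham replicate 2, 0.067 without KO MI replicate 1, 0.219 without KO MI replicate 2, 0.0509 without either WT MI array and 0.0526 with the replicate number as a block), and the WT difference passed in 5 of 19.

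Of the convertases, Corin fell in WT hearts alone by the test, although the difference between the genotypes did not pass one. It read 10.97 and 10.73 in the KO MI arrays, against 10.89 and 11.32 in the KO sham arrays, which overlapped. It read 10.64 and 10.65 in the WT MI arrays, against 11.20 and 11.11 in the WT sham arrays, which did not. Corin was 1.43-fold lower in WT MI (difference -0.52, SE 0.16, adjusted p = 0.0378), and its KO difference was -0.26 (95% interval -0.61 to 0.10, adjusted p = 0.325). The 2 differences themselves differed by 0.26 (95% interval -0.25 to 0.77, adjusted p = 0.772). The WT fall was lost in 7 of 19 alternatives, among them cyclic loess (adjusted p = 0.0905), the replicate block (adjusted p = 0.0558) and the removal of either array of WT MI or of WT sham (adjusted p from 0.108 to 0.176).

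Furin, a convertase of the secretory pathway found in most cells, read 9.50 and 9.46 in the KO MI arrays against 9.55 and 9.685 in the KO sham arrays. It read 9.56 and 9.94 in the WT MI arrays against 9.575 and 9.62 in the WT sham arrays. It spanned 0.476 over the 8 arrays, less than any other gene of the system. Its differences were -0.14 in KO (95% interval -0.46 to 0.19, adjusted p = 0.588) and 0.15 in WT (95% interval -0.17 to 0.48, adjusted p = 0.475), so a change of more than about 0.48 in either direction lay outside both intervals.

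All 3 receptor genes read lower after infarction, and whether they differed from each other in this was not tested. Npr2, the CNP receptor, read 8.05 and 7.91 in the KO MI arrays, against 9.115 and 8.96 in the KO sham arrays. It read 7.82 and 7.81 in the WT MI arrays, against 8.99 and 9.025 in the WT sham arrays. All 4 MI arrays lay below all 4 sham arrays. Npr2 was 2.08-fold lower in KO MI (difference -1.06, SE 0.12, adjusted p = 0.000361) and 2.28-fold lower in WT MI (difference -1.19, SE 0.12, adjusted p = 0.00011), and both falls passed in each of the 19 alternatives.

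Npr3, the clearance receptor, which marks the endocardium in the mouse heart, read 6.93 and 7.40 in the KO MI arrays, against 7.71 and 8.19 in the KO sham arrays. It read 6.80 and 7.04 in the WT MI arrays, against 8.13 and 8.35 in the WT sham arrays. It was 1.73-fold lower in KO MI (difference -0.79, SE 0.20, adjusted p = 0.0224) and 2.49-fold lower in WT MI (difference -1.32, SE 0.20, adjusted p = 0.00108). The WT fall passed in each of the 19 alternatives, and the KO fall was lost with all probes tested (adjusted p = 0.0683), without KO sham replicate 2 (adjusted p = 0.122) and without KO MI replicate 1 (adjusted p = 0.172). The fall was 0.53 smaller in KO than in WT (95% interval -0.12 to 1.17, adjusted p = 0.666), a difference that did not pass.

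Npr1, the receptor for ANP and BNP, read 6.19 and 6.03 in the KO MI arrays, against 7.07 and 6.48 in the KO sham arrays. It read 6.25 and 6.06 in the WT MI arrays, against 6.58 and 6.50 in the WT sham arrays. The MI arrays lay below the sham arrays in both genotypes. It was 1.59-fold lower in KO MI (difference -0.67, SE 0.185, adjusted p = 0.0305), and in WT the difference was -0.38 (95% interval -0.80 to 0.03, adjusted p = 0.159). The KO fall was lost in 6 of 19 alternatives, among them the fits without KO sham replicate 1 (adjusted p = 0.126), without KO MI replicate 1 (adjusted p = 0.0867) and without KO MI replicate 2 (adjusted p = 0.175). With either KO sham array left out the WT fall passed (adjusted p = 0.0433).

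**Figure D2:**
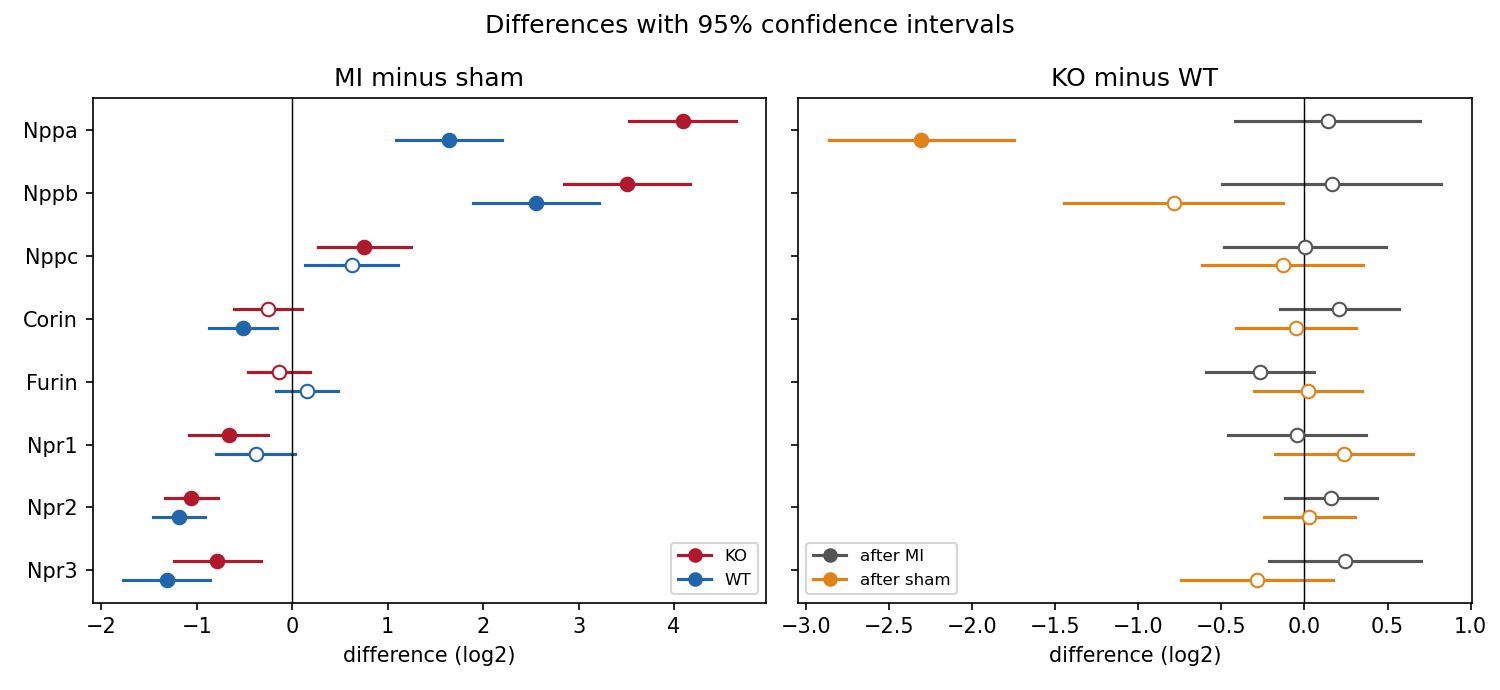
Differences (log2) of the 8 genes, MI minus sham in KO and in WT hearts (left) and KO minus WT after MI and after sham surgery (right). Lines are 95% confidence intervals of the limma fit, and filled points have an adjusted p under 0.05. On the right a single point is filled, Nppa after sham surgery (-2.31).

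Some markers of other cells changed after infarction as well. Over all genes, 10.5% rose and 10.3% fell in KO, and 12.3% rose and 15.8% fell in WT. Of 8 leukocyte markers 6 rose and 0 fell in each genotype, and their mean level was 8.61 and 8.77 in KO MI against 6.31 and 6.40 in KO sham, and 9.19 and 8.92 in WT MI against 6.35 and 6.37 in WT sham. Of 9 smooth muscle and pericyte markers 4 fell in KO and 8 in WT, with a mean level of 8.22 and 8.18 in KO MI against 8.415 and 8.565 in KO sham, and of 8.08 and 8.19 in WT MI against 8.895 and 9.32 in WT sham. Of 7 fibroblast markers 1 fell in KO and 4 in WT (mean 9.09 and 9.05 in KO MI against 9.13 and 9.435 in KO sham, and 8.76 and 8.69 in WT MI against 9.33 and 9.41 in WT sham). Of 8 endothelial markers 3 fell in KO, and 2 fell and 1 rose in WT, with means of 9.10 to 9.35 after MI and 9.25 to 9.50 after sham surgery. The 4 endocardial markers went different ways: Cytl1 fell 2.40-fold in KO and 2.88-fold in WT, while Plvap rose 2.32-fold in each. Of 8 heart muscle markers 2 fell in KO and 3 in WT, and of 6 ventricular muscle markers 4 fell in each genotype. The part of these cells in the falls of the receptor genes was not tested, and in RNA from whole tissue fewer cells of a type and less RNA per cell cannot be told apart.

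Between genotypes, 1 of the 8 genes differed after sham surgery, where 0.0301% of all genes were called and 0.0251% were lower in KO. This was Nppa, at 8.11 and 8.52 in the KO sham arrays against 10.19 and 11.06 in the WT sham arrays, 4.95-fold lower in KO (difference -2.31, SE 0.25, adjusted p = 0.0154). The fall was lost in 7 of 19 alternatives. Its adjusted p was 0.0819 with array weights, 0.306 with all probes, 0.247 with the sham groups alone and 0.056 without either WT MI array. It was 0.13 without KO sham replicate 1 (difference -2.10) and 0.212 without that array and WT MI replicate 2 together. Nppb, at 9.97 and 8.87 in KO sham against 10.10 and 10.31 in WT sham, had a difference of -0.79 (95% interval -1.45 to -0.13, unadjusted p = 0.0243, adjusted p = 0.881). For the other 6 genes the arrays of KO sham and WT sham overlapped.

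Some of the atrial genes varied among the sham arrays as well. Atrial muscle holds far more ANP than ventricular muscle, and the labels do not say whether atria were included. The mean level of 10 atrial markers was 6.55 and 5.72 in the KO sham arrays, against 6.24 and 7.06 in the WT sham arrays, and after MI all 4 values lay from 5.42 to 5.53. None of the 10 passed in KO sham against WT sham by limma (1 at an unadjusted p under 0.05), 8 lay below 0 and the median difference was -0.25. Myl7, the atrial myosin light chain, chosen here after its values were seen, read 7.86 and 4.555 in the KO sham arrays, against 6.09 and 8.795 in the WT sham arrays. In WT sham the array with more Myl7 (replicate 2) also had more Nppa, whereas in KO sham replicate 1 had more Myl7 and less Nppa than replicate 2. After MI Myl7 read between 4.62 and 4.91 while Nppa stood at its highest. Bmp10, between 2.795 and 3.15, lay at the low end of the array in all samples (10th percentile of genes 2.96 to 3.15), and Sln read between 3.24 and 4.18. Myl4 read 9.15 and 7.08 in the KO sham arrays, against 8.26 and 10.58 in the WT sham arrays. Mybphl read 4.98 and 3.84 in the KO sham arrays, against 4.38 and 6.23 in the WT sham arrays. Kcnj3, Kcnk3, Nr2f1 and Nr2f2 varied less over the sham arrays. Kcnj3 read between 9.65 and 9.89 there, Kcnk3 between 9.43 and 9.66, Nr2f1 between 4.50 and 4.69 and Nr2f2 between 6.52 and 6.835. Dkk3, the atrial marker with an unadjusted p under 0.05, read 5.79 and 4.95 in the KO sham arrays, against 6.23 and 7.21 in the WT sham arrays, without overlap (difference -1.35, limma, adjusted p = 0.397). Contractile smooth muscle markers also read lower in KO sham. Of 9 smooth muscle and pericyte markers 7 lay below 0, 4 had an unadjusted p under 0.05 (5.1% of all genes) and 0 passed by limma. Their mean level was 8.415 and 8.565 in the KO sham arrays, against 8.895 and 9.32 in the WT sham arrays. Those 4 were the contractile genes Acta2 (difference -1.65), Cnn1 (-1.67), Myh11 (-1.05) and Tagln (-1.02), whose arrays did not overlap. WT sham replicate 2 read above replicate 1 for Cnn1 (8.28 against 6.40) and Tagln (7.68 against 6.735). Of the rest, Rgs5 (0.115), Notch3 (0.05), Pdgfrb (-0.03) and Abcc9 (-0.05) lay near 0, and Kcnj8 differed by -0.25. The part of atrial tissue and of smooth muscle in the sham difference of Nppa was not tested.

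**Figure D3:**
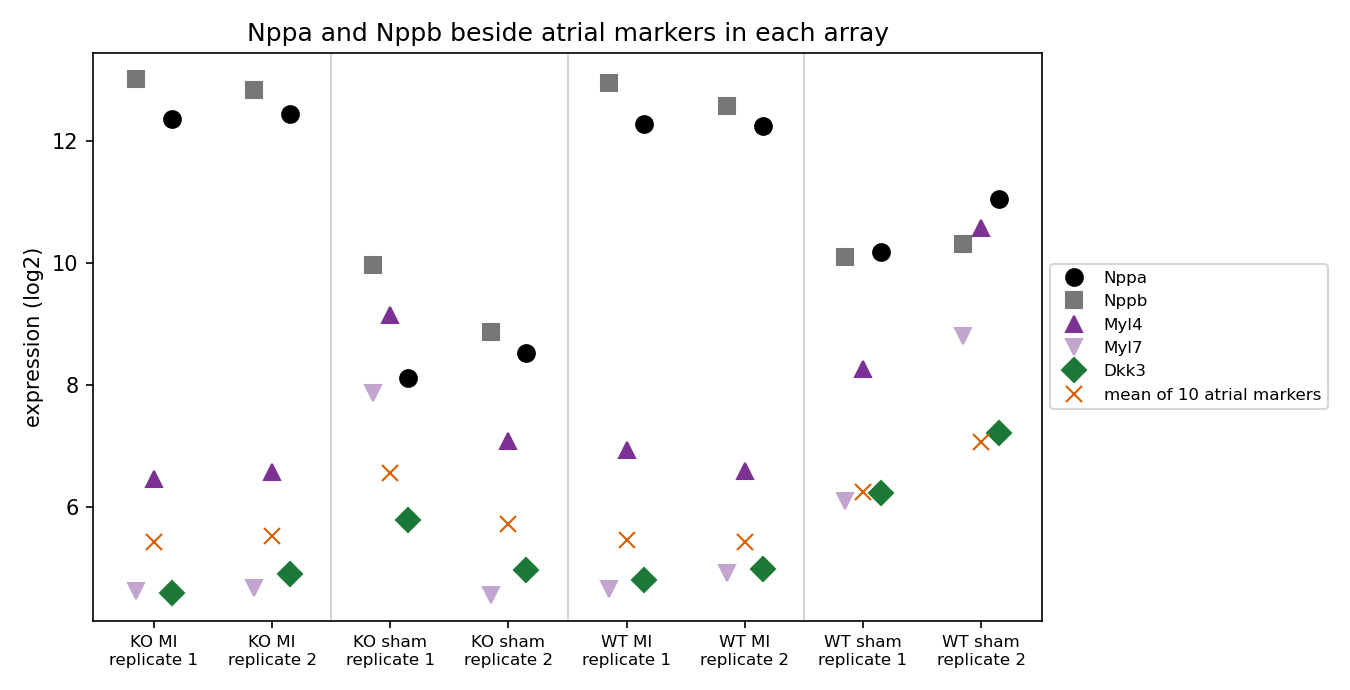
Expression (log2) of Nppa, Nppb, the atrial genes Myl4, Myl7 and Dkk3 and the mean of 10 atrial markers in each of the 8 arrays, with small sideways shifts to separate points. KO sham replicate 1 had Myl7 at 7.86 with Nppa at 8.11, and WT sham replicate 2 had Myl7 at 8.795 with Nppa at 11.06.

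After infarction none of the 8 genes differed between KO and WT by limma, where 0.0702% of all genes were called. None of the 8 had an unadjusted limma p under 0.05, where 11.7% of all genes had one. Nppa lay 0.14 higher in KO MI (95% interval -0.42 to 0.70, adjusted p = 0.875), and Nppb 0.16 higher (95% interval -0.50 to 0.82, adjusted p = 0.879). The widest intervals of the other 6 were those of Nppc (-0.48 to 0.49) and Npr3 (-0.21 to 0.70).

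The response of Nppa to infarction was 2.45 larger in KO than in WT (95% interval 1.66 to 3.24, limma, unadjusted p = 4.83e-05), but with adjustment over all genes it did not pass (adjusted p = 0.161). Most of this difference lay in the sham arrays, where KO minus WT was -2.31, against 0.14 after infarction. For this difference of responses 0% of all genes passed, and 1637 of 19938 genes had an unadjusted p under 0.05, among them 2 of the 8. Nppa passed with an intensity trend (adjusted p = 0.0471) and without WT sham replicate 1 (adjusted p = 0.0161), over a range of 0.0161 to 0.678. The other gene under 0.05 was Nppb, with a response 0.95 larger in KO (95% interval 0.02 to 1.88, unadjusted p = 0.0469, adjusted p = 0.608).

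Enzymes that degrade the peptides were measured next to the clearance receptor. Of 5 genes 1 fell in KO hearts and 2 in WT hearts, and 0 rose, where 10.3% of all genes fell in KO and 15.8% in WT, shares that also apply to the lists that follow. Mme, which encodes neprilysin, the main protease that degrades ANP, read 5.71 and 5.43 in the KO MI arrays, against 6.84 and 7.72 in the KO sham arrays. It read 5.37 and 5.26 in the WT MI arrays, against 7.18 and 7.43 in the WT sham arrays. Mme was 3.27-fold lower in KO MI (difference -1.71, SE 0.25, adjusted p = 0.00123) and 3.99-fold lower in WT MI (difference -2.00, SE 0.25, adjusted p = 0.000308). Ide, the insulin-degrading enzyme, was 1.98-fold lower in WT MI (adjusted p = 0.000475), and its KO difference was -0.30 (adjusted p = 0.145).

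Among 6 other proprotein convertases measured, 1 fell in KO hearts, 2 fell in WT hearts and 0 rose. Pcsk6, which cuts the corin precursor into its active form, had the largest fall. It read 7.745 and 7.57 in the KO MI arrays, against 9.24 and 9.36 in the KO sham arrays, and 6.915 and 6.53 in the WT MI arrays, against 9.54 and 9.44 in the WT sham arrays. It was 3.125-fold lower in KO MI (difference -1.64, SE 0.15, adjusted p = 1e-04) and 6.815-fold lower in WT MI (difference -2.77, SE 0.15, adjusted p = 2.85e-06). Pcsk6 was 0.94 higher in KO MI than in WT MI, where the arrays did not overlap, but this missed the threshold (adjusted p = 0.0705), as did the difference of the responses (1.12, SE 0.22, adjusted p = 0.305). Mbtps1, the site-1 protease, was 1.44-fold lower in WT MI (adjusted p = 0.00764), a fall lost without WT sham replicate 1 (adjusted p = 0.0769).

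Downstream of the receptors, 16 genes of cGMP signalling and breakdown were measured. In KO hearts 1 rose and 5 fell, with a median difference of -0.255, and in WT hearts 1 rose and 7 fell, with a median of -0.37, against medians of 0.01 and 0.04 over all genes. Vasp, a substrate of cGMP-dependent protein kinase, was the gene that rose, to 7.57 and 7.59 in KO MI against 7.105 and 6.81 in KO sham (1.54-fold, adjusted p = 0.00946). Leaving out KO MI replicate 1 (adjusted p = 0.0559) or replicate 2 (adjusted p = 0.0632) ended this call, and in WT it was 1.70-fold (adjusted p = 0.0023). Gucy1a1, a subunit of the soluble guanylyl cyclase that nitric oxide activates, was 1.775-fold lower in KO MI (adjusted p = 0.0137, but 0.0621 and 0.0915 without KO MI replicate 1 and 2 and 0.0725 without KO sham replicate 2) and 2.55-fold lower in WT MI (adjusted p = 0.000677). Its partner subunit Gucy1b1 was 2.12-fold lower in WT MI (adjusted p = 0.000533), and in KO its difference was -0.36 (adjusted p = 0.123). Pde5a, a phosphodiesterase that breaks down cGMP, was 1.52-fold lower in KO MI (adjusted p = 0.0189) and 2.05-fold lower in WT MI (adjusted p = 0.000764). Rgs2, a regulator of G-protein signalling that cGMP-dependent kinase activates, was 1.92-fold lower in KO MI (adjusted p = 0.00212) and 1.75-fold lower in WT MI (adjusted p = 0.0031).

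Of 16 genes for transcription factors known to act on the Nppa or Nppb promoter, 1 rose and 7 fell in KO hearts (median difference -0.38), and 0 rose and 6 fell in WT hearts (median -0.28). Mef2a was 1.72-fold lower in KO MI (adjusted p = 0.00228) and 1.82-fold lower in WT MI (adjusted p = 0.000827). Tbx5, an activator of Nppa, was 1.91-fold lower in KO MI (adjusted p = 0.00344) and 1.815-fold lower in WT MI (adjusted p = 0.00358). Tbx3, a repressor of Nppa, was 1.77-fold lower in KO MI (adjusted p = 0.00234) and 1.75-fold lower in WT MI (adjusted p = 0.00172). Irx4, a ventricular factor, was 2.42-fold lower in WT MI (adjusted p = 8.78e-05) and 1.54-fold lower in KO MI (adjusted p = 0.00716). Tbx20 was 1.71-fold lower in WT MI (adjusted p = 0.00129) and 1.41-fold lower in KO MI (adjusted p = 0.0186). Gata4, Gata6 and Nkx2-5, whose motifs stand in the promoters above, were singled out for that reason after their values were seen. Gata4 differed by -0.09 in KO (adjusted p = 0.729) and by -0.27 in WT (adjusted p = 0.175), and Nkx2-5 by -0.01 in KO (adjusted p = 0.986) and by -0.16 in WT (adjusted p = 0.402). Gata6 was 1.40-fold lower in KO MI (difference -0.49, adjusted p = 0.047), and it differed by -0.29 in WT (adjusted p = 0.187). The KO call was lost without either KO MI array, either WT sham array or KO sham replicate 1 (differences from -0.62 to -0.36). Array weights, all probes, the KO groups alone, cyclic loess and the replicate block lost it too (adjusted p from 0.0683 to 0.0956). Srf, also named after its values were seen as the 1 rise, read 9.42 and 9.505 in the KO MI arrays, against 8.95 and 8.93 in the KO sham arrays. It was 1.44-fold higher in KO MI (adjusted p = 0.0106), a call lost without KO MI replicate 2 (difference 0.48). In WT hearts Srf read 9.31 and 9.40 after MI, against 9.42 and 9.42 after sham surgery (adjusted p = 0.732). The KO sham arrays thus lay below all others, by 0.48 against WT sham (limma, unadjusted p = 0.00214, adjusted p = 0.391). Between KO and WT, 0 of the 50 genes of these lists and of the chromosomal neighbours passed by limma after MI, after sham surgery or for the difference of the responses, and 12, 7 and 9 had an unadjusted p under 0.05 in the same order (11.7%, 5.1% and 8.21% of all genes).

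**Figure D4:**
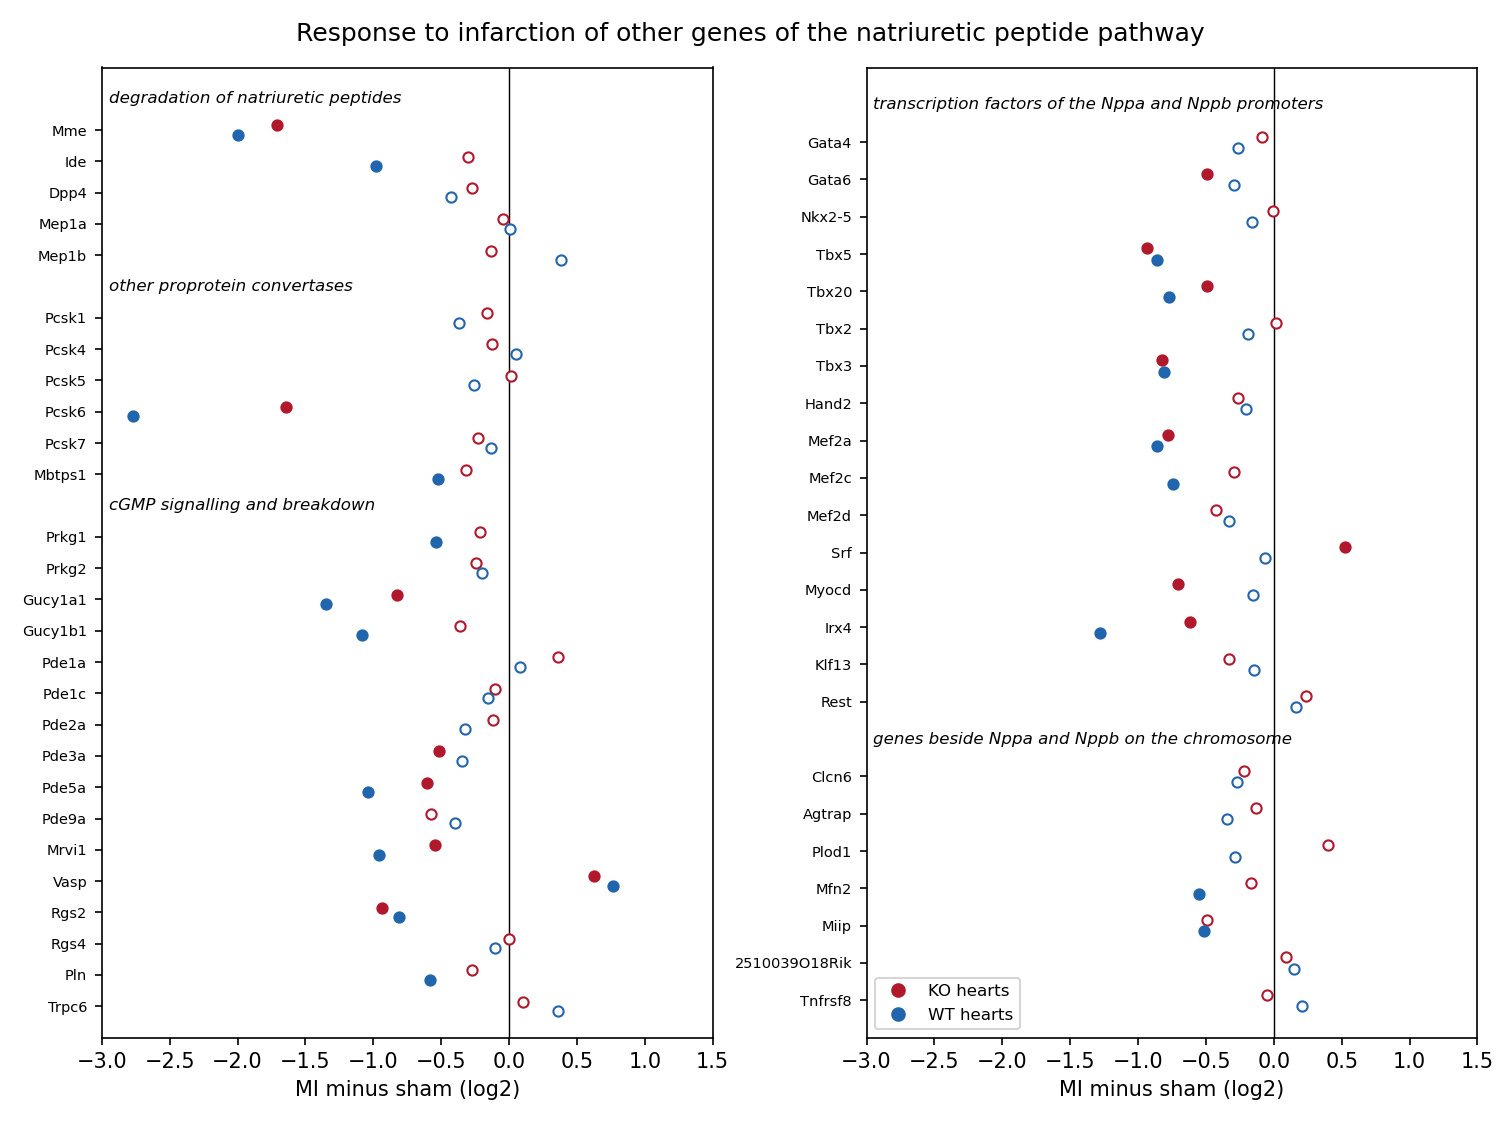
MI minus sham (log2) for the other genes of the pathway by list, in KO hearts and in WT hearts. Filled points have an adjusted p under 0.05. Mme and Pcsk6 lay farthest to the left in both genotypes, and Vasp lay to the right in both.

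By Pearson correlation over the 8 arrays, the genes most like Nppa were Ndufa1 (r = 0.983), Ece2 (r = 0.983), Kcnc4 (r = 0.974), Wdr1 (r = 0.974) and Caml (r = 0.970). Ece2, an endothelin-converting enzyme, read 5.85 and 5.90 in the KO MI arrays against 4.94 and 5.19 in the KO sham arrays. It read 5.79 and 5.79 in the WT MI arrays against 5.30 and 5.58 in the WT sham arrays. KO sham was lowest as for Nppa, but a gene picked for its correlation with Nppa tends to share that order. The genes most like Nppb were Tmem45a (r = 0.993), Prg4 (r = 0.992), Snora33 (r = 0.989), Kndc1 (r = 0.988) and Rpain (r = 0.988). Prg4, which encodes the lubricant glycoprotein lubricin, read 11.41 and 11.55 in the KO MI arrays against 7.96 and 7.355 in the KO sham arrays, and 11.49 and 11.275 in the WT MI arrays against 8.40 and 8.29 in the WT sham arrays. These genes were picked as the closest of 19938, and the arrays share the contrast of MI with sham, so the correlations are descriptions only.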

How the data were processed

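The authors deposited log2 expression values. Per the submitters' processing notes, Affymetrix Expression Console and RMA were used, with no versions. RMA usually equalises the distributions of arrays, which would shrink any change common to most genes. Of 35556 probes, 21789 had 1 gene symbol, 1621 several and 12146 were not listed in the platform annotation. Of those with 1, 21698 matched a RefSeq gene table (GRCm38.p6) by Entrez ID. The probe with the highest mean over the 8 arrays stood for each gene, which left 19938 genes with no filter on low values. No genome build is named for the arrays.

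All 8 arrays entered 1 limma 3.58.1 fit in R 4.3.3 of 4 group means, two-sided, with 4 residual and 5.57 prior degrees of freedom, with Benjamini-Hochberg adjustment over all genes and a threshold of 0.05. An exact permutation test of 2 arrays against 2 cannot give a p under 0.333. Precision is limited by the number of arrays. The code was tested on simulated data. Alternatives changed the prior (intensity trend, robust), the weights of arrays, the genes tested (without the lowest 33.3%, every probe, probes averaged per gene), the scaling (cyclic loess, median centring), the samples (only the groups compared, each array left out) and the design (replicate number as a block). A fit leaving out 2 arrays at once (replicate 1 of KO sham and replicate 2 of WT MI) was added after seeing the data. A fit without an array assumes that the lone array of a group varies like the others.

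The 8 genes, the other gene lists and the motifs were chosen with earlier results of these data known. All 8 genes are named, with up to 3 genes of each list and comparison with the smallest p past the threshold, and the 5 genes of highest correlation with Nppa and with Nppb. Lists are described by counts and medians, with no test of the list. Some listed genes are not reported here. Promoter windows came from a RefSeq table. Figures were drawn with matplotlib 3.10.9.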

Additional observations from a re-analysis of the deposited data

Results flagged for a closer look

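For Nppa the arrays of KO and WT were separated in opposite directions after sham surgery and after infarction, although the gap after infarction did not pass the test. After infarction the arrays of KO and WT did not overlap for 4 of the 8 genes, Nppa included, and 0 of the 8 passed. The share of all genes without overlap between KO and WT was not counted. Both KO sham arrays (8.11 and 8.52) lay below both WT sham arrays (10.19 and 11.06), and both KO MI arrays (12.36 and 12.45) lay above both WT MI arrays (12.27 and 12.25). The response to infarction was larger in KO by 2.448 (SE 0.35, limma, unadjusted p = 4.83e-05), which missed the threshold after adjustment over all genes (adjusted p = 0.161). Most of this lay in the sham arrays, where KO minus WT was -2.31, while the gap after infarction was 0.14 (adjusted p = 0.875).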

How the results depend on the processing

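The 8 genes gave 752 values under the alternatives, and most of these were not called in the fit reported. Of the 752, 711 stayed on the same side of the threshold and 9 came to pass it. Of those that had been called, 32 were no longer past it and 0 turned round. Uncalled values count among the 711 even where their direction changed, as for Nppb in KO MI against WT MI (-0.022 to 0.347). Nppa and Nppb after MI in both genotypes, Npr2 in both and Npr3 in WT passed under every alternative. With all probes tested 3 of the 8 genes were called in KO MI against KO sham (6 with 1 probe per gene), and 0 in KO sham against WT sham, where more tests were adjusted for. That sham count, 1 with all arrays, was also 0 with array weights, with the 2 groups alone and without KO sham replicate 1 and WT MI replicate 2 together, and the cause was not tested. With an intensity trend 1 gene (Nppa) passed for the difference of the responses, cause not tested. Leaving out each array in turn gave 3 to 6 genes in KO MI against KO sham, 4 to 7 in WT MI against WT sham, 0 to 1 in KO sham against WT sham, 0 to 1 for the difference of the responses and 0 in KO MI against WT MI. Over all genes the alternatives called 2246 to 4670 in KO MI against KO sham (4142 in the fit reported), 3457 to 6483 in WT MI against WT sham (5609), 0 to 63 in KO MI against WT MI (14), 1 to 34 in KO sham against WT sham (6) and 0 to 4 for the difference of the responses (0). Same-numbered arrays showed no clear sign of pairing: deviations from the group means correlated between -0.187 and 0.156 across genes. With 2 arrays a group and no known pairs to compare with, this cannot exclude a shared batch or day. With the replicate block, 5 and 4 of the 8 genes were called in KO MI and in WT MI against sham, 1 in KO sham against WT sham and 0 in the other comparisons. Of the calls after MI, that of Nppc in KO was lost most often, in 9 of 19 alternatives.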

Other observations

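The genes around Nppb and Nppa on chromosome 4 did not move as that pair did. Of 7 genes measured there, 6 of them within 5 protein-coding genes of the pair, 0 rose after infarction in either genotype, 0 fell in KO hearts and 2 fell in WT hearts. Clcn6, a chloride transporter gene and the next one after Nppa, read 6.76 and 6.69 in the KO MI arrays against 6.87 and 7.02 in the KO sham arrays, and 6.57 and 6.64 in the WT MI arrays against 6.82 and 6.94 in the WT sham arrays, and was singled out for its place after its values were seen. Its differences were -0.22 in KO (adjusted p = 0.265) and -0.28 in WT (adjusted p = 0.13). Mfn2, which encodes the mitochondrial fusion protein mitofusin 2, read 11.455 and 11.605 in the WT MI arrays against 12.09 and 12.065 in the WT sham arrays, 1.46-fold lower (limma adjusted p = 0.0125). That fall was lost without WT sham replicate 1 or 2 or WT MI replicate 1 (adjusted p from 0.0667 to 0.0804). Miip was 1.43-fold lower in WT MI (limma adjusted p = 0.0476), which 8 of 19 alternatives did not keep.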
